A study of Mus musculus with 32 samples.

Results

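The Schlafen genes are a family of interferon-inducible, growth-regulatory genes, and 6 of them (Slfn1, Slfn2, Slfn4, Slfn5, Slfn8 and Slfn9) were followed here across 32 arrays of mouse macrophage lines. Members were read from probe sets that the annotation table gives to 1 gene alone. A gene with several would have been represented by the probe set chosen by its mean signal over all arrays, the only measured value in the rule. All 6 members had exactly 1 such probe set, so this choice changed nothing. They are 6 of the 19938 genes with a single-gene probe set. The mean over the 32 arrays was 8.26 for Slfn1, 11.29 for Slfn2, 10.92 for Slfn4, 9.85 for Slfn5, 8.67 for Slfn8 and 9.08 for Slfn9, on the log2 signal scale; these are levels of different probes and cannot be ranked against each other.

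Schlafen proteins share a conserved core with an RNA-binding and, in some members, RNA-cleaving fold, and were first described in developing and activated T cells. The short forms Slfn1 and Slfn2 consist of little more than this core, Slfn3 and Slfn4 are of intermediate length, and the long forms Slfn5, Slfn8 and Slfn9 carry a helicase-like domain as well. Slfn1 halts cell growth when it is forced on in cultured cells, Slfn2 keeps T cells and monocytes in quiescence and protects transfer RNA from cleavage, and Slfn4 is a myeloid gene that interferon and bacterial products induce in macrophages.

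The arrays, Affymetrix Mouse Gene 1.0 ST, measured total RNA from 4 lines. All carry M-/- in their names, followed by that of their receptor for CSF-1, the growth and survival factor of macrophages. In the Y721F and 3AB lines this receptor (CSF-1R) lacks Tyr-721, and in the 3ABY721 and WT lines it has that tyrosine. The labels' protocols give 120 ng/mL CSF-1 for routine culture. In the steady-state experiment, Y721F, 3AB, 3ABY721 and WT cells were either grown continuously in CSF-1 or starved of it; in the time course, Y721F and WT cells starved overnight received CSF-1 for 0, 20, 60 or 180 min. Each of the 16 groups holds 2 arrays, numbered I and II and described as biological replicates, and values below are given in that order. What else the 3AB receptors carry, what drives the receptors and whether a line is 1 clone is stated in none of the sources used here. As each receptor is carried by 1 line, the receptor and any other difference between lines cannot be told apart. Whether the replicates came from separate cultures is also not stated, so p-values measure the spread between arrays. In RNA of whole cultures, fewer expressing cells and less RNA per cell cannot be told apart.

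Of 13 macrophage markers, Csf1r, Adgre1, Cd68, Lyz2, Spi1, Ptprc and Tyrobp were at 10.6 or above on all 32 arrays, with Csf1r between 12.72 and 13.41. The lowest values were 10.1 for Itgam, 10.07 for Cd14, 8.8 for Fcgr3 and 5.43 for Mertk. Aif1 had a median of 5.98, and Fcgr1, a high-affinity Fc receptor, reached as low as 5.99 in Y721F cells. As the lines are named for the CSF-1 receptor they carry, Csf1r may read that receptor and not mark the cell type, which was not tested. The T cell markers Cd3e, Cd3d, Cd3g, Cd4 and Cd8a had medians between 4.12 and 6.11, and Cd2, the sixth measured, had a median of 8.09 and reached 9.52. Arrays of a pair correlated at 0.986 to 0.996. In the time course the 4 WT arrays numbered I stood above those numbered II for Slfn1, by 2.14 to 2.49 log2, and this touches every time-course result below. At 0, 20, 60 and 180 min, only 13, 18, 32 and 8 of the 19938 genes had a gap of this size or larger, while the median gap over all genes lay between -0.03 and 0.02.

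The start regions of the genes differ in short sequence features, and 2 sets are printed: members with a core bound by interferon-activated factors, and members that share a rarer run. RefSeq promoter windows (build GRCm38.p6, 250 bases before to 50 bases after the start) matched all 6 members. The core of the interferon-stimulated response element, GAAA, any 2 bases and GAAA again on either strand, is present in 3.44% of 32851 such windows and was found in those of Slfn8, Slfn9 and Slfn5. Its first base lies 48 bases before the start in Slfn8, 45 in Slfn9 and 155 in Slfn5; a second RefSeq start of Slfn8 puts it at 136. The capitals mark this core in excerpts of 80 bases, each on the strand of its gene.
Slfn8 (chr11:83020814-83020893, minus strand): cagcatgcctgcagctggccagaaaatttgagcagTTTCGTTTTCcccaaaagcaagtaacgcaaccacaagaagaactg
Slfn9 (chr11:82991831-82991910, minus strand): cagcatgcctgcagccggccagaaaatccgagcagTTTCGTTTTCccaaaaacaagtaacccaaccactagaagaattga
Slfn5 (chr11:82951912-82951991, plus strand): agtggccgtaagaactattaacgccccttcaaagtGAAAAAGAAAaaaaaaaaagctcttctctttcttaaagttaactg
Slfn8 and Slfn9 hold the same core letters, and their aligned windows are identical at 84.9% of bases. The genes are paralogs, and as the probe sequences were not used here, signal from one may reach the probe set of the other.

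The windows of Slfn1, Slfn2 and Slfn4 held no such core, and no member's window held the gamma-activated site TTCNNNGAA, which is in 8.3% of all windows. The AP-1 site TGANTCA, in 7.81% of windows, was found in Slfn4, 34 bases before the start. Slfn1, Slfn2 and Slfn4 instead share an 11-base run, ACTTCCTGGAG, that is in 24 of the 32851 windows (0.0731%); it was picked after the sequences were seen. It begins 74 bases before the start in Slfn1, 55 in Slfn2 and 73 in Slfn4, and is in capitals below.
Slfn1 (chr11:83116711-83116790, plus strand): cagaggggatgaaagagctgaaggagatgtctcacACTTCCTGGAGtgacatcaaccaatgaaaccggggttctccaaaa
Slfn2 (chr11:83065022-83065101, plus strand): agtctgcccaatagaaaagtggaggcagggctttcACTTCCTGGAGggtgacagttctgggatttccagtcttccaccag
Slfn4 (chr11:83175078-83175157, plus strand): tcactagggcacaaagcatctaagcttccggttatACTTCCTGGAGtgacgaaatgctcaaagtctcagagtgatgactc
In Slfn1 and Slfn4 the shared run extends to 15 bases, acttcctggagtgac. A match of letters is a description of these windows and does not show that a factor binds there.

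Of the 6 members, 5 were lower in Y721F than in WT cells whether the cells were grown in CSF-1 or starved of it, and Slfn5 was the exception. Slfn1 fell the most, by more than 20-fold in both states, Slfn4 and Slfn8 by 4- to 6-fold, and Slfn2 and Slfn9 by less than 3-fold. A gene was called where limma's p, adjusted over 19938 genes by the Benjamini-Hochberg method, was under 0.05 and the fold above 1.5. By this rule 5 of 6 members were called lower in grown cells, where 4.94% of all genes were, and the same 5 in starved cells, where 7.66% were.

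Of the short forms, Slfn1 had 5.44 and 5.50 in grown Y721F cells, against 9.72 and 10.10 in grown WT cells. In starved cells it had 5.40 and 6.36 in Y721F, against 10.23 and 10.81 in WT. The groups lie far apart in both states. The log2 difference was -4.44 (standard error, SE, 0.26; 21.7-fold; limma adjusted p = 8.57e-08) in grown cells and -4.64 (SE 0.26; 24.9-fold; limma adjusted p = 4.63e-08) in starved cells. Counted from the most negative difference, Slfn1 was number 7 of 19938 genes in grown cells and number 8 in starved cells. Across all 12 Y721F arrays its signal stood at percentile 22.1 to 44.8 of the genes on its array, against 72.7 to 97.8 on the other 20 arrays. A signal so low may be close to the background of the probe set, for which no detection flag was used here, so these folds may be too small.

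Slfn2, the quiescence factor of T cells, was high on every array and moved little. It had 10.64 and 10.71 in grown Y721F cells, against 11.21 and 11.46 in grown WT cells, a log2 difference of -0.66 (SE 0.14; 1.58-fold; limma adjusted p = 0.00744). In starved cells it had 10.91 and 11.15 in Y721F, against 11.72 and 12.02 in WT, a difference of -0.84 (SE 0.14; 1.79-fold; limma adjusted p = 0.00109). The groups did not overlap in either state, but the call in grown cells rests close to the fold threshold: it was lost at -0.58 after quantile normalization and at -0.54 without WT array II.

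Slfn4, the intermediate form of myeloid cells, had 9.29 and 9.52 in grown Y721F cells, against 11.57 and 11.75 in grown WT cells. Starved cells had 9.32 and 9.65 in Y721F, against 11.63 and 12.31 in WT. In each state both Y721F arrays lie below both WT arrays. The difference was -2.26 (SE 0.21; 4.77-fold; limma adjusted p = 7.27e-06) in grown cells and -2.48 (SE 0.21; 5.6-fold; limma adjusted p = 2.7e-06) in starved cells.

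Of the long forms, Slfn8 had 6.79 and 6.48 in grown Y721F cells, against 8.78 and 8.88 in grown WT cells, and 7.09 and 6.74 in starved Y721F cells, against 9.10 and 9.57 in starved WT cells. The differences of -2.19 (SE 0.22; limma adjusted p = 1.36e-05) and -2.42 (SE 0.22; limma adjusted p = 5.34e-06) correspond to 4.58-fold and 5.35-fold lower signal. Its neighbour Slfn9 was also lower. Slfn9 had 7.74 and 7.89 in grown Y721F cells, against 8.59 and 8.83 in grown WT cells (difference -0.90, SE 0.16; limma adjusted p = 0.00272), and 8.20 and 8.23 in starved Y721F cells, against 9.30 and 9.86 in starved WT cells (difference -1.36, SE 0.16; limma adjusted p = 6.96e-05).

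Slfn5, a long form that acts in the nucleus, did not pass the test in either state. It had 10.24 and 9.75 in grown Y721F cells, against 9.19 and 9.79 in grown WT cells, and 10.06 and 9.80 in starved Y721F cells, against 8.76 and 10.04 in starved WT cells. The groups overlap in both states, with WT array I the lowest of the 4 each time. The log2 difference was 0.50 (95% interval -0.16 to 1.17; limma adjusted p = 0.343) in grown cells and 0.53 (95% interval -0.13 to 1.19; limma adjusted p = 0.253) in starved cells. These intervals hold no change as well as a rise of 1 log2 unit. In starved cells the sign depended on the array: the difference was 1.30 for arrays I and -0.24 for arrays II. Without WT starved array II it was 1.17, and Slfn5 was then called higher in Y721F, with 1 WT array left in that group.

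**Figure D1:**
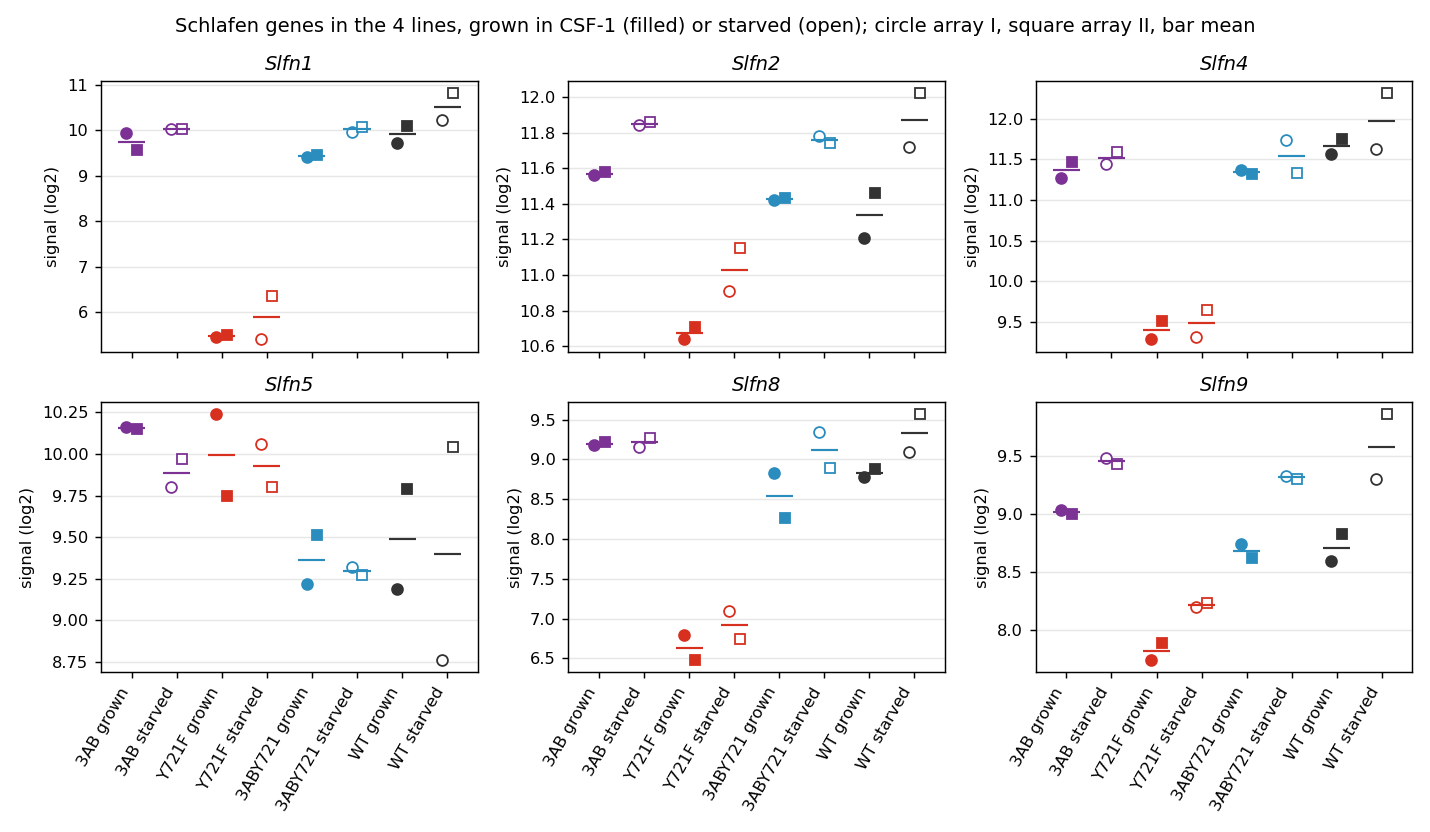
Signal (log2) of the 6 members in the 4 lines grown in CSF-1 or starved of it; each point is 1 array and each bar the mean of 2 arrays. Slfn1, Slfn2, Slfn4, Slfn8 and Slfn9 are lowest in the Y721F line, with Slfn1 at 5.40 to 6.36 there, while Slfn5 overlaps between Y721F and WT.

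The low level was not shared by the other line without Tyr-721. Grown 3AB cells had 9.93 and 9.57 for Slfn1, 11.27 and 11.47 for Slfn4 and 9.18 and 9.22 for Slfn8. Grown 3ABY721 cells had 9.41 and 9.45 for Slfn1, 11.37 and 11.32 for Slfn4 and 8.83 and 8.26 for Slfn8. In limma's test of 3AB against 3ABY721, 0 of 6 members were called in grown cells, where 1.18% of all genes were called and 2251 had an unadjusted p under 0.05, and 0 of 6 in starved cells, where 0.617% were called and 1680 had such a p.

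The intervals bound how far apart these lines can be. For Slfn1 the log2 difference of 3AB from 3ABY721 was 0.32 (95% interval -0.23 to 0.87) in grown and 0.01 (95% interval -0.54 to 0.56) in starved cells. For Slfn4 it was 0.02 (95% interval -0.42 to 0.47) in grown and -0.02 (95% interval -0.46 to 0.42) in starved cells. All of these exclude a fall of the size measured between Y721F and WT. In grown cells Slfn8 differed by 0.66 (95% interval 0.19 to 1.12; limma adjusted p = 0.223) and Slfn5 by 0.79 (95% interval 0.13 to 1.45; limma adjusted p = 0.333), both towards a higher signal in 3AB, and neither passed the test after adjustment. Slfn5 in 3AB cells, at 10.16 and 10.15 grown and 9.80 and 9.97 starved, lay above every 3ABY721 array of the same state, which had 9.22 and 9.51 grown and 9.32 and 9.27 starved.

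The difference between the line pairs was tested directly, in a contrast added after the data were seen: the change of Y721F from WT less the change of 3AB from 3ABY721. The same 5 members were called lower, among 4.85% of genes in grown cells and 6.91% in starved cells. For Slfn1 the contrast was -4.76 (SE 0.36; limma adjusted p = 1.96e-06) in grown and -4.65 (SE 0.36; limma adjusted p = 2.67e-06) in starved cells. For Slfn5 it was -0.28 (95% interval -1.22 to 0.65) in grown and -0.06 (95% interval -1.0 to 0.88) in starved cells, with limma adjusted p = 0.736 and 0.946.

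**Figure D2:**
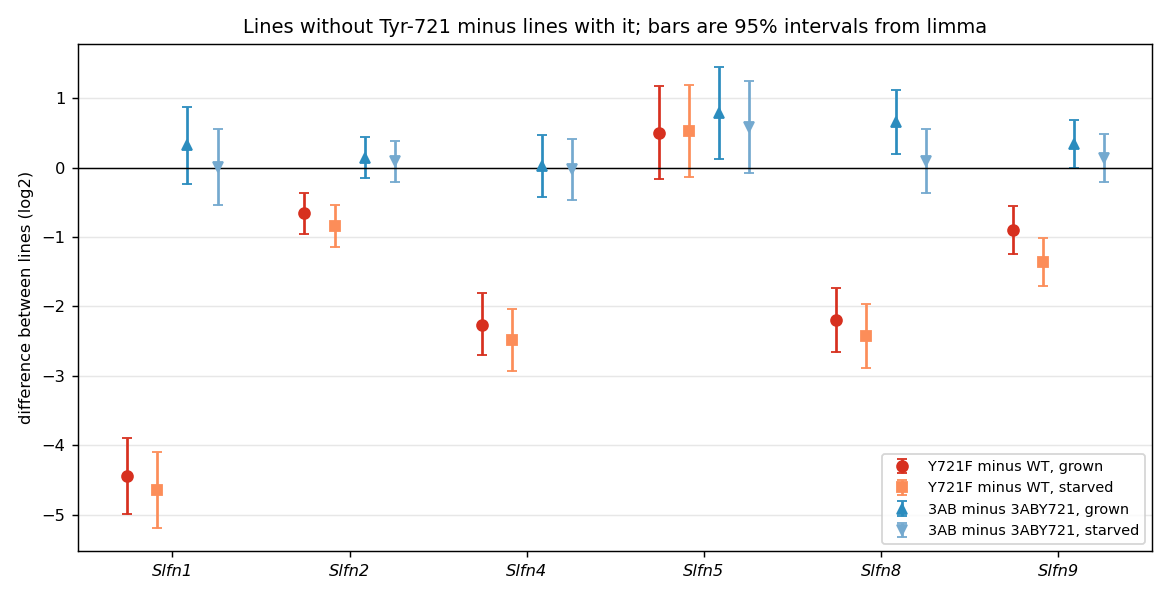
Difference between lines (log2) for each member, Y721F minus WT and 3AB minus 3ABY721, in grown and in starved cells; points are limma estimates from 2 arrays a group and bars their 95% intervals. The Y721F estimates run to -4.64 for Slfn1, while the 3AB estimates stay between -0.02 and 0.79.

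Set directly against each other, the lines without Tyr-721 differed in the same 5 members. These were called higher in 3AB than in Y721F, in grown cells, where 4.65% of genes were called higher, and in starved cells, where 5.08% were. The log2 differences in grown and starved cells were 4.28 and 4.15 for Slfn1, 0.90 and 0.82 for Slfn2, 1.96 and 2.03 for Slfn4, 2.56 and 2.30 for Slfn8 and 1.2 and 1.24 for Slfn9. This comparison shares its Y721F arrays with the one above. Between the lines with Tyr-721, 3ABY721 against WT, limma called 0 of 6 members in grown cells (0.256% of genes called, 2376 with an unadjusted p under 0.05) and 0 of 6 in starved cells (1.81% called, 3394 with such a p). The largest of these was -0.50 for Slfn1 in starved cells (95% interval -1.05 to 0.05).

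In order of level, Y721F starved and Y721F grown were the lowest of the 8 steady-state groups for Slfn1, Slfn2, Slfn4, Slfn8 and Slfn9, and the 4 Y721F arrays lay below all 12 arrays of the other lines for each of them. The same holds for 617 of the 19938 genes (3.09%), and it rests on the same arrays as the calls above. Of the 7 steps between neighbouring groups, those without overlap numbered 3 for Slfn1, 5 for Slfn2, 1 for Slfn4, 2 for Slfn8, 5 for Slfn9 and 1 for Slfn5. The median over all genes was 1, and neighbours overlap at the other steps. With so few arrays a group, a step without overlap does not by itself show a difference. The step of 3AB starved over 3ABY721 starved was counted for Slfn2 and Slfn9, and limma called neither gene there. For Slfn5, both lines without Tyr-721 stand in the upper part of the order, and the Y721F arrays overlap those of WT.

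Between cells grown in CSF-1 and starved cells, 1 of 6 members was called, in the WT line. This was Slfn9, lower in grown WT cells, where 3.01% of genes were called lower. It had 8.59 and 8.83 in grown WT cells, against 9.30 and 9.86 in starved WT cells, a difference of -0.87 (SE 0.16; limma adjusted p = 0.00638). Without WT starved array II (difference -0.59, adjusted p = 0.0533) or WT grown array I (-0.75, adjusted p = 0.0743) it was not called; the adjusted p over all alternatives ran between 0.00255 and 0.0743. Slfn2 in WT cells had a difference of -0.54 (limma adjusted p = 0.0349), below the fold threshold. It was called without WT starved array I and without WT grown array II.

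In the other lines limma called 0 of 6 members between grown and starved cells: in Y721F 4.94% of genes were called (4285 with an unadjusted p under 0.05), in 3AB 0.687% (2394) and in 3ABY721 1.41% (2431). For Slfn9 the uncalled differences were -0.40 in Y721F, -0.44 in 3AB and -0.64 in 3ABY721. Slfn2 had -0.36, -0.28 and -0.34 in those lines. In 3ABY721 cells the mean of Slfn1 was 9.43 grown and 10.02 starved, and that of Slfn8 was 8.54 and 9.12. The growth effect in Y721F differed from that in WT for 0 of 6 members (0.0903% of genes called, 2527 with an unadjusted p under 0.05), with limma's estimate for Slfn9 at 0.47 (95% interval -0.02 to 0.96). That in 3AB differed from that in 3ABY721 for 0 of 6 members (0.00502% called, 440 with such a p).

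In the time course, Y721F cells starved overnight again had far less Slfn1 than WT cells. At 0 min Slfn1 had 5.27 and 5.22 in Y721F cells, against 11.59 and 9.15 in WT cells. The groups do not overlap, but the WT arrays are 2.44 apart. The difference was -5.12 (SE 1.00; 34.9-fold; limma adjusted p = 0.0443), the most negative of 19938 genes, and Slfn1 was the 1 of 6 members called, against 0.306% of genes called lower. By array number it was -6.32 for I and -3.93 for II. The call was lost without WT array I (-3.90, adjusted p = 0.397), Y721F array I (-5.15, adjusted p = 0.212) or Y721F array II (-5.10, adjusted p = 0.202); over all alternatives the adjusted p ran between 0.000464 and 0.397.

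Slfn4 at 0 min had 10.37 and 9.59 in Y721F cells, against 12.32 and 10.84 in WT cells, and Slfn8 had 8.09 and 8.22, against 10.10 and 8.92. Neither pair of groups overlaps, and neither was called: the differences were -1.60 (limma adjusted p = 0.539) and -1.36 (limma adjusted p = 0.324). Slfn9, at 9.30 and 9.18 in Y721F against 9.84 and 9.23 in WT cells, overlapped here (difference -0.30, 95% interval -0.87 to 0.28). Slfn2 had 10.96 and 10.74 in Y721F, against 11.55 and 11.29 in WT cells (difference -0.57, limma adjusted p = 0.0929), close to its size in the steady-state experiment.

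Fitted without array numbers, adding CSF-1 for up to 180 min called 0 of 6 members in either line. In limma's tests against 0 min, the shares of all genes called were 0.0802% at 20 min, 0.176% at 60 min and 0.261% at 180 min in Y721F cells, and 0.16%, 0.632% and 2.16% in WT cells. The numbers with an unadjusted p under 0.05 were 1357, 1064 and 2656 in Y721F and 436, 2361 and 2918 in WT cells. In Y721F cells Slfn1 stayed between 5.0 and 5.29 on all 8 arrays. In WT cells it had 11.59 and 9.15 at 0 min, 11.43 and 8.97 at 20 min, 11.08 and 8.94 at 60 min and 11.15 and 8.66 at 180 min.

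Arrays of the same number deviated together within each line, and with the number as a block limma called 1 of 6 members in Y721F cells at 180 min (Slfn5), and 0 of 6 at the other times and at every time in WT cells. The shares of all genes called with the block were 0.246%, 0.853% and 5.39% at 20, 60 and 180 min in Y721F cells and 0.431%, 3.74% and 7.81% in WT cells. Slfn1 in WT cells was below its 0 min level in both array numbers at every time, with differences of -0.16 and -0.18 at 20 min, -0.51 and -0.21 at 60 min and -0.44 and -0.49 at 180 min on the log2 scale. Its blocked adjusted p at 180 min was 0.0344 in limma, at a difference under the 1.5-fold threshold.

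Among differences of group means from 0 min in the time course, that of Slfn5 in Y721F cells at 180 min was the largest of the members', with Slfn8 at 60 min next at 0.60. Slfn5 had 10.13 and 9.74 at 0 min, 10.39 and 9.69 at 20 min, 11.10 and 9.89 at 60 min and 11.11 and 10.20 at 180 min. Arrays I lie above arrays II at each time, and both numbers were higher at 180 min than at 0 min. The difference at 180 min was 0.72 (SE 0.50; limma adjusted p = 0.634). With the number as a block the difference was called, at 0.72 (SE 0.16; limma adjusted p = 0.0196). In WT cells Slfn5 had 9.85 and 9.20 at 0 min and 10.20 and 9.49 at 180 min, a difference of 0.32 (SE 0.50; limma adjusted p = 0.912). Limma's test of the difference between these responses, fitted without array numbers, gave 0.40 (95% interval -1.15 to 1.95). By array number the difference was 0.63 for I and 0.17 for II. With the number as a block, 0 of 19938 genes were called in this contrast.

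Slfn8 in Y721F cells had 8.09 and 8.22 at 0 min, 7.95 and 8.23 at 20 min, 9.19 and 8.32 at 60 min and 8.44 and 8.09 at 180 min, so that array I at 60 min stands above the other 7. Slfn4 was likewise highest on that array, at 10.93, against 9.59 to 10.48 on the other 7 Y721F arrays of the time course. Slfn2, at 11.32, and Slfn9, at 9.56, were also highest there, Slfn5, at 11.10, was 0.01 below its highest value, and Slfn1 had 5.04. The response of Y721F less that of WT was called for 0 of 6 members at 20, 60 and 180 min, where 0% of genes were called and 810, 640 and 277 had an unadjusted p under 0.05 in limma.

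**Figure D3:**
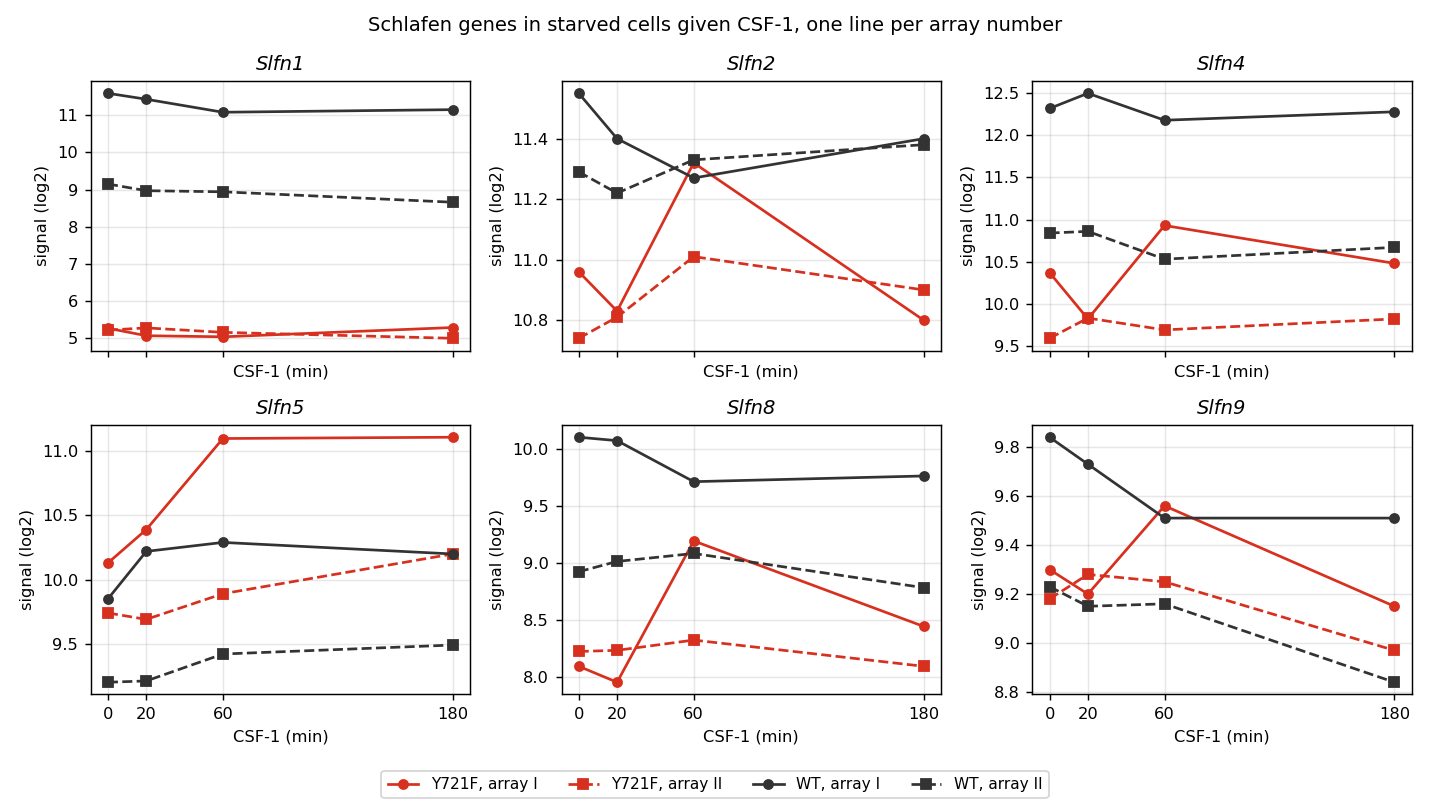
Signal (log2) of each member against minutes of CSF-1 in Y721F and WT cells; each line joins the arrays of 1 number, I or II. WT arrays I run 2.14 to 2.49 above WT arrays II for Slfn1, while the 8 Y721F arrays stay between 5.0 and 5.29.

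Other Schlafen genes on the array were read alongside the members. Slfn3, of intermediate length, had 8.59 to 8.81 in grown Y721F cells, against 9.38 to 9.88 in grown WT cells, a difference of -0.93 (limma adjusted p = 0.00211), and -0.84 (limma adjusted p = 0.00314) in starved cells. The pseudogene Slfn10-ps had -0.33 (limma adjusted p = 0.307) in grown cells and was called at -0.99 (limma adjusted p = 0.00308) in starved cells. With the array number as a block it also rose in Y721F cells by 0.66 at 60 min (limma adjusted p = 0.0172), against an adjusted p of 0.107 without it. The Schlafen-like gene Slfnl1 stayed between 5.63 and 6.27 on all 32 arrays, and Slfn5os, which lies antisense to Slfn5, between 5.18 and 5.89. Slfn14 has no single-gene probe set used here.

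The genes on either side of the cluster on chromosome 11 were looked at in their order in the gene table. Of the 5 protein-coding genes on each side, 9 of 10 were measured. Between Y721F and WT, 0 of 9 were called by limma in grown cells, where 7.88% of all genes were called in either direction. There 4986 of all genes had an unadjusted p under 0.05. In starved cells, where 11.1% of all genes were called, 1 of 9 was: Rad51d, a recombination gene, at -0.59. For so few genes, these counts are near the share among all genes. Within the cluster, Slfn5 stands at the end next to Unc45b and did not pass the test, while Slfn9, Slfn8, Slfn2, Slfn1, Slfn4 and Slfn3, in that order, were called in both states, and Slfn10-ps between Slfn8 and Slfn2 in starved cells.

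**Figure D4:**
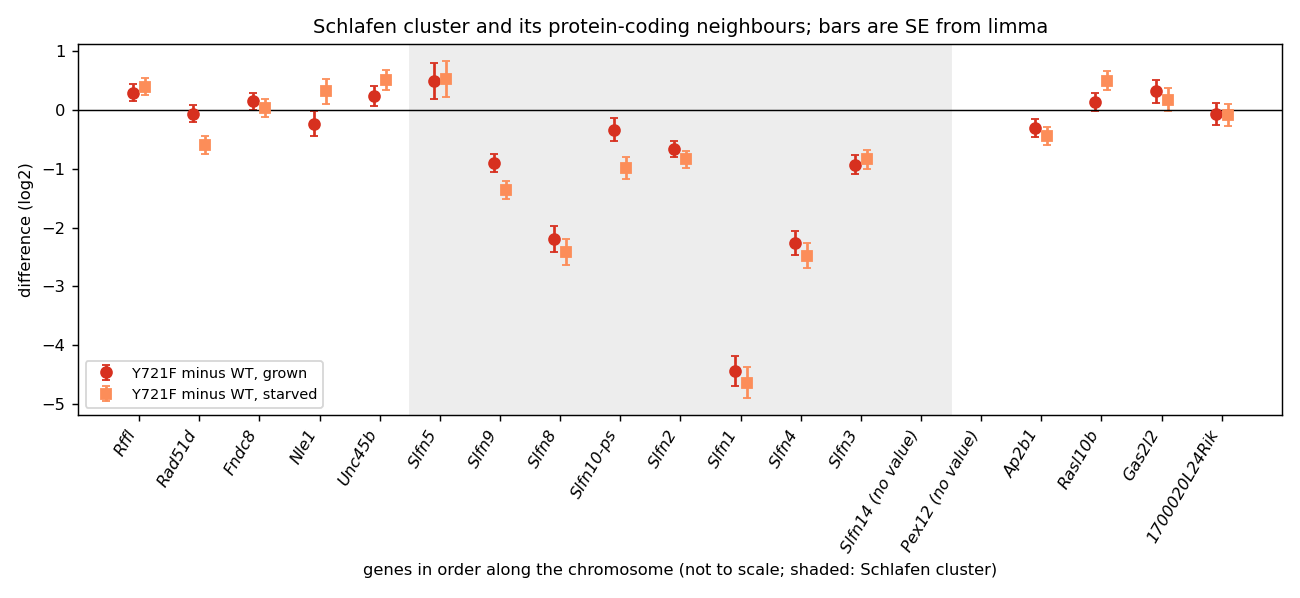
Difference of Y721F from WT (log2, with SE) in grown and starved cells for the Schlafen cluster and its measured neighbours, in their order along chromosome 11, not to scale. Neighbours lie between -0.59 and 0.52, and the Schlafen genes reach -4.64 at Slfn1.

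As the family is interferon-inducible, 30 measured genes of an interferon response list were set beside it. In Y721F against WT, 0 were called higher and 19 lower in grown cells, where 4.94% of all genes were called lower. The median log2 difference was -0.93, against 0.05 over all genes. In starved cells 0 were called higher and 28 lower, where 7.66% of all genes were called lower (median -1.63, against 0.00). Ifit3 differed by -3.44 in grown and -4.30 in starved cells, and Mx1, an antiviral GTPase, by -2.56 and -3.12. The chemokine gene Cxcl10 differed by -3.08 and Oasl2 by -2.84 in grown cells, and the antiviral gene Rsad2 by -3.22 and Gbp3 by -3.10 in starved cells.

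The same list was read in the other pairs of lines. In 3AB against 3ABY721, limma called 0 of 30 in grown cells (1.18% of all genes) and 0 of 30 in starved cells (0.617%). In 3AB against Y721F, 25 of 30 were called higher in grown cells and 27 in starved cells, with medians of 1.14 and 1.32. Of all genes, 4.65% and 5.08% were called higher. At 0 min of the time course, 0 of 30 were called between Y721F and WT, with a median of -0.76. There 0.727% of all genes were called and 1921 had an unadjusted p under 0.05.

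The mean of these 30 genes also separated the WT arrays of the time course. At 0 min it was 9.34 and 9.12 in Y721F cells, against 10.47 and 9.87 in WT cells, so that array I exceeded array II by 0.60 in WT cells, and the WT arrays I were the higher at every time. In Y721F cells it peaked at 9.87 on array I at 60 min, the array on which Slfn2, Slfn4, Slfn8 and Slfn9 were highest in those cells. WT array II at 0 min had the same list mean, 9.87, which matches only 1 array with 1 array. The Y721F array had 10.93 for Slfn4, 9.19 for Slfn8 and 5.04 for Slfn1. That WT array had 10.84, 8.92 and 9.15. Over the 12 Y721F arrays the list mean ran from 8.27 to 9.87 and Slfn1 from 5.0 to 6.36. There Slfn1 stood at percentile 22.1 to 44.8 and may be close to background, so a lower level could not be read. In WT cells of the time course, arrays I were above arrays II at every time for both Slfn1 and the list mean. Whether the interferon response has a part in the members' differences was not tested.

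**Figure D5:**
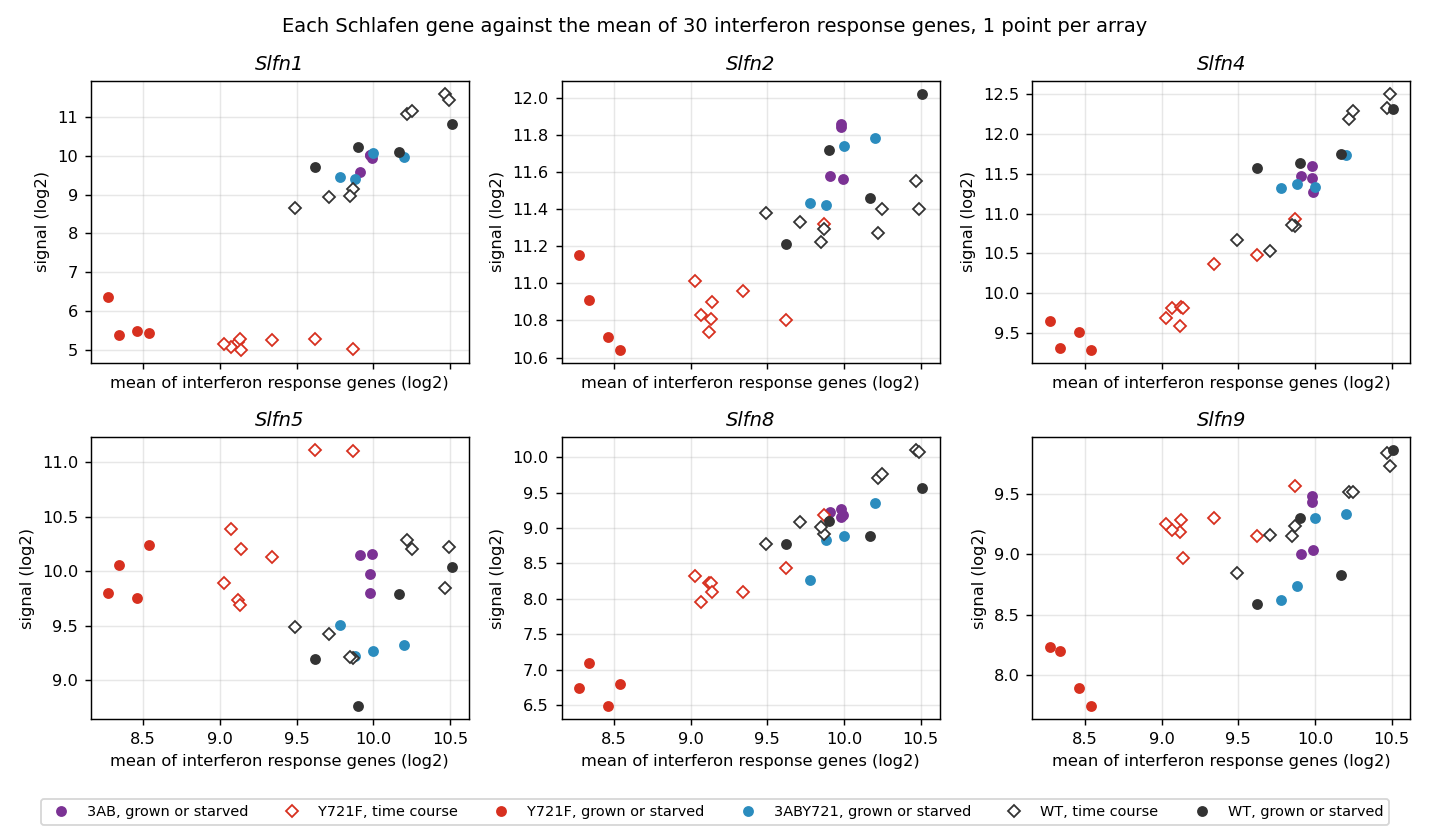
Signal (log2) of each member against the mean of 30 interferon response genes (log2), 1 point per array, coloured by line; open diamonds are time-course arrays. Slfn4 and Slfn8 run up with the list mean across lines, and Slfn5 shows no such run. Slfn1 stays between 5.0 and 6.36 on all Y721F arrays, where its signal may be close to background.

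Of 19 measured genes that sense or transmit interferon, 0 were called higher and 6 lower in Y721F than in WT in each state. Of all genes, 4.94% were called lower in grown and 7.66% in starved cells. The list medians were -0.35 and -0.50, against 0.05 and 0.00 over all genes. Irf8, a myeloid transcription factor, differed by -2.10 in grown and -1.66 in starved cells, and Tlr3, a sensor of double-stranded RNA, by -1.69 and -1.30. The receptor subunit gene Ifnar1 differed by -1.01 in grown cells, where Mavs, an adaptor of RNA sensing, differed by -0.72. In starved cells the receptor kinases Jak2 and Tyk2 differed by -0.84 and -0.74.

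For the growth-regulatory side of the family, 11 genes that hold lymphocytes quiescent and 17 measured proliferation genes were set beside it. Of the first, limma called 0 in grown cells and 1 of 11 lower in starved cells, Foxp1 at -0.60. Of the second, the replication gene Mcm4 was called lower in grown cells (-0.60), 1 of 17 where 4.94% of all genes were, and Mcm4 (-0.70) and Tyms (-0.61) in starved cells, 2 of 17 where 7.66% were. These counts are near the share among all genes. Medians of the proliferation list were -0.18 and -0.32, against 0.05 and 0.00 over all genes.

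Markers of cell type also differed between these lines. In Y721F against WT, 4 of 13 macrophage markers were called lower in each state. Among them were Fcgr1 (-5.16 grown, -4.38 starved) and Mertk, a receptor for apoptotic cells (-2.78 and -1.75). The list medians were -0.50 and -0.38. Of all genes, 4.94% were called lower in grown and 7.66% in starved cells, and 7.88% and 11.1% in either direction. Cd2, on the T cell list, was called lower (-1.42 and -2.21), with the other 5 of its list not called, and Pdgfra, on the fibroblast list, higher (2.04 and 1.50), with the other 5 of its list not called. Of the B cell (4) and neutrophil (8) markers measured, limma called 0 in either state. Their part in the Schlafen differences was not tested.

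The genes whose pattern was most like each member were named by Pearson's r over the 16 group means among 6204 genes, as a description. The Y721F groups stand apart for most members, so r largely reads that split. For Slfn1 they were Lilra5 (r = 0.981), Map4k1 (0.971) and Cd84 (0.966), and for Slfn2 Ccl6 (0.951), Tpd52 (0.946) and Gbp4 (0.943). For Slfn4 they were Pnp (0.988), Ifi209 (0.981) and Trim30a (0.981). For Slfn8 they were Ifit3 (0.986), Rtp4 (0.982) and Tlr7 (0.975), and for Slfn9 Dtx3l (0.964), Sp100 (0.945) and Bcor (0.943). Slfn5 had no gene as close, with Fam135a (0.829), Il10 (0.815) and Rnf7 (0.803) the nearest. Lilra5, the nearest to Slfn1, had means of 5.90 in grown Y721F and 6.12 in starved Y721F cells, against 9.0 in grown WT and 10.79 in starved WT cells.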

How the data were processed

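The values deposited by the authors are log2 signals for 35556 probe sets on 32 arrays. The scale was inferred from the values; how the authors corrected background and normalized, and on which genome build, is not given in the sources used here. Array medians lie between 5.97 and 6.22. Platform annotation gave 21789 probe sets to 1 gene and 1621 to several (left out), and 12146 have no entry.

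Group means of each experiment (8 groups) were fitted in 1 model with limma 3.58.1 in R 4.3.3, with Benjamini-Hochberg adjustment over 19938 genes in each of 26 comparisons, 2 of them added after the data were seen. The number of arrays limits the precision. Members and gene lists were chosen with earlier results of these data known, so the members' calls are not independent evidence. The text names the 6 members, other Schlafen genes, up to 4 called genes with the largest change per list and comparison, and the 3 genes most like each member among genes with an SD of at least 0.3 over group means.

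Array numbers pair arrays within a line in the time course: deviations from group means correlated at 0.353 to 0.648 over 6 pairs of Y721F groups and at 0.487 to 0.734 over 6 pairs of WT groups, against -0.063 to 0.29 across lines. In the steady-state experiment they correlated at 0.042 to 0.28 within lines and -0.328 to 0.283 across lines, and were not taken as pairs. Alternatives were quantile normalization, the mean of a gene's probe sets, leaving out genes under the 20th percentile, 1 fit of all 32 arrays, the replicate block and leaving out each array.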

Additional observations from a re-analysis of the deposited data

Results flagged for a closer look

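The loss of Tyr-721 went with different changes in the pairs of lines, by limma's test of the difference itself. In grown cells the change of Y721F from WT less the change of 3AB from 3ABY721 was -4.76 for Slfn1, -0.80 for Slfn2, -2.28 for Slfn4, -2.85 for Slfn8 and -1.23 for Slfn9 (log2). In starved cells it was -4.65 for Slfn1, -0.93 for Slfn2, -2.46 for Slfn4, -2.52 for Slfn8 and -1.5 for Slfn9.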

How the results depend on the processing

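Of 262 recomputed counts of called members, 251 stayed within 1.5 times the reported count, and of 1572 recomputed member differences 14 lost and 7 gained a call and 0 called ones changed sign. With the replicate block, the count became 1 for Y721F 180 min against 0 min (Slfn5, where 0 were called without it), 2 for Y721F 0 min against WT 0 min (Slfn1 and Slfn4, with Slfn4 at -1.60 with adjusted p = 0.0368, where numbers did not pair arrays across lines) and 1 for grown against starved 3ABY721 cells (Slfn9, -0.64, adjusted p = 0.0344, where numbers did not pair the arrays); the block moved no other count of called members by over 1.5 times. Leaving out 1 array gave counts of 0 to 1 for Y721F 0 min against WT 0 min, 0 to 2 for grown against starved WT cells and 0 to 1 for grown against starved Y721F cells (Slfn1 at -0.89 without Y721F starved array I), 4 to 5 for Y721F against WT grown and 5 to 6 starved, and 5 throughout for 3AB against Y721F. In Y721F against WT, Slfn1, Slfn4, Slfn8 and Slfn9 kept their calls in all 9 alternatives in both states, and Slfn2 in 7 grown and 9 starved. In the contrast of line pairs, Slfn2 in grown cells was called in 8 of 13 alternatives, and Slfn4 lost its call in 1 fit of 32 arrays (adjusted p = 0.0854 grown, 0.0536 starved). Over all genes the block moved the count called at 180 min to 1074 from 52 in Y721F and to 1557 from 431 in WT cells, to 400 from 145 for Y721F against WT at 0 min and to 429 from 282 for grown against starved 3ABY721 cells; the cause was not tested. Depth does not apply to arrays; Slfn1 in Y721F cells is limited by its low signal.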
